A study of Mus musculus with 10 samples.

Results

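The 10 enzymes described here were Hk1, Hk2, Pfkm, Pfkp, Aldoa, Aldoc, Ldha and Ldhb, which carry out steps of glycolysis, and Pygb and Ppp1r3c, which act on glycogen. They were chosen by name as a set of glycolysis and glycogen genes, with earlier results of these data known. All 10 were found among the 19965 genes of the table. Each gene was represented by the probe set with the highest mean over all 10 arrays. The RNA came from cells sorted from the papain-dissociated hippocampus of mice heterozygous for Sox1-GFP, a reporter that makes green fluorescent protein (GFP) where the neural stem cell gene Sox1 is active. GFP-positive cells here are those sorted for high GFP. The groups were GFP-positive cells of old mice at 1 year 9 months (n = 4), GFP-positive cells of young mice at 7, 5 and 4 months for replicates 1, 2 and 3 (n = 3), and GFP-negative cells of young mice at 7, 7 and 4 months (n = 3). All groups thus carried 1 copy of the reporter, none received a treatment, and GFP-negative cells of old mice were not analysed here. Expression is given as the log2 value of the array after Robust Multichip Average (RMA), in which a difference of 1 is a 2-fold difference.

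Glycolysis splits glucose into pyruvate in the cytosol. Hexokinases trap glucose as glucose 6-phosphate, phosphofructokinases commit it to the pathway, aldolases cleave the sugar, and lactate dehydrogenases interconvert pyruvate and lactate. Several of these steps have more than 1 isoenzyme, each from its own gene, and cell types use them in different mixtures. In the brain glycogen is stored mainly by astrocytes, which break it down with glycogen phosphorylase and can pass lactate to other cells.

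In young mice the GFP-positive cells had more mRNA of 6 of the 10 enzymes than the GFP-negative cells, and less of 1. The genes that were higher were Ppp1r3c, Aldoc, Pygb, Pfkm, Pfkp and Ldhb, by 1.73-fold to 9.85-fold, and the lower one was Hk2, by 1.96-fold (limma, Benjamini-Hochberg adjusted p under 0.05 over all genes). Over all genes tested 17.0% were called, 7.68% being higher and 9.30% lower in this comparison. The values of the same 7 genes did not overlap between the groups, where 38.9% of all genes did not. Between old and young GFP-positive cells 0 of the 10 enzymes passed limma's test, against 0.0150% of all genes, and 0 of the 10 had an unadjusted p under 0.05. The median log2 difference of the enzymes was 0.83 between the young fractions, against 0.098 over all genes, and 0.007 with age, against 0.053. Because the enzymes were chosen with earlier results known, these counts and medians do not test the set against all genes. In sorted pools such as these, a different share of cells that express a gene and a different amount of its RNA per cell cannot be told apart.

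The promoter windows of the 3 genes with the largest differences (Ppp1r3c, Aldoc and Pygb), of Hk2, the gene that was lower, and of Ldha, which did not pass, are shown because they set genes that differed in opposite directions or not detectably beside each other. Each runs from 250 bases before to 50 bases after a RefSeq transcription start in the build GRCm38.p6, 5′ to 3′ on the gene's strand, and for Aldoc and Ldha it is the outermost of 2 starts. Capitals mark ACGTG or its complement CACGT, a form of the core letters of sites for hypoxia-inducible factors. The form GCGTG was not counted or marked. The 6-letter E-box CACGTG holds ACGTG on both strands and appears as 1 run.
Ppp1r3c, chr19:36736555-36736854, minus strand: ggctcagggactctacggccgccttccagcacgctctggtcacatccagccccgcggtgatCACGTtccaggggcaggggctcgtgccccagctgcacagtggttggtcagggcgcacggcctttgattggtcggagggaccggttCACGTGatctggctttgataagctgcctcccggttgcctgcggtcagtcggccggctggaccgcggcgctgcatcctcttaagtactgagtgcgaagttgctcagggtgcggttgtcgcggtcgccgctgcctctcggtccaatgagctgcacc
Aldoc, chr11:78322823-78323122, plus strand: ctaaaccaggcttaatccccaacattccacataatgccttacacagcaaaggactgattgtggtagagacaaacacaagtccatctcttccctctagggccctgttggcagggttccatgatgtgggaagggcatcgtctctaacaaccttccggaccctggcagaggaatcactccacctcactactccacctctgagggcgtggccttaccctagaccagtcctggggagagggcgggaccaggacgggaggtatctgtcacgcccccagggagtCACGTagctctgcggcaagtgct
Pygb, chr2:150786546-150786845, plus strand: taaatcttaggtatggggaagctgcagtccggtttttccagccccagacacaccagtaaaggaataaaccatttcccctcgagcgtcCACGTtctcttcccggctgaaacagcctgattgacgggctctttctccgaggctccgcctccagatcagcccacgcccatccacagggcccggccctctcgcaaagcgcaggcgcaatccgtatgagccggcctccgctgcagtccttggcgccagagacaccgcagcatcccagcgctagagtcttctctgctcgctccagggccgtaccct
Hk2, chr6:82774405-82774704, minus strand: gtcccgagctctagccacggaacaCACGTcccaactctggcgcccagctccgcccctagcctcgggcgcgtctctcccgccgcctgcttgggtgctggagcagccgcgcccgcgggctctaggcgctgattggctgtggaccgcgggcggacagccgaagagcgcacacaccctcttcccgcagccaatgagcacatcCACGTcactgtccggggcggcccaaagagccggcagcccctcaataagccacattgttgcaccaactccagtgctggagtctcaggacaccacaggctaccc
Ldha, chr7:46845554-46845853, plus strand: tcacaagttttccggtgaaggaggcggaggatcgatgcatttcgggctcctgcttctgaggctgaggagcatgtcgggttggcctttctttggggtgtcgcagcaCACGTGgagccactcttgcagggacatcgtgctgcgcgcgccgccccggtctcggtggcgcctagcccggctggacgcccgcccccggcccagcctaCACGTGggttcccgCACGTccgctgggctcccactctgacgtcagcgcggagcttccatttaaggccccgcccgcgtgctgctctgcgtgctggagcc
The windows shown held ACGTG or CACGT, with 2 runs for Ppp1r3c, 1 for Aldoc, 1 for Pygb, 2 for Hk2 and 3 for Ldha. At the outermost starts of the 10 enzymes 6 windows held these letters, against 19.6% of all 32851 windows of this length. All windows include several starts for some genes. The 4 without these letters were those of Pfkp and Ldhb, which were higher, and of Aldoa and Hk1, which did not pass. The windows of Pfkp and Ldhb held GCGTG, which was not counted. With all starts counted, 10 of 18 windows and 8 of the 10 genes had a match to ACGTG or CACGT. The share of all genes with a match at any start was not computed. CACGTG stood in 3 of the 10 outermost windows, those of Ppp1r3c, Ldha and Pfkm, and in 7.15% of all windows. A match gives only the letters in the window, and binding was not measured.

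Hexokinases carry out the entry step. Hk1, the form found in most brain cells, had values of 8.95, 8.60, 8.71 and 8.57 in old GFP-positive samples, 8.97, 8.87 and 7.94 in young GFP-positive samples and 8.43, 8.22 and 7.52 in young GFP-negative samples. The young groups overlapped, because replicate 3 of the GFP-positive cells lay below replicates 1 and 2 of the GFP-negative cells. The log2 difference of 0.54 (95% confidence interval -0.085 to 1.16) did not pass the test (adjusted p = 0.226). Hk1 passed when young GFP-positive replicate 3 was left out (0.86, adjusted p = 0.0325) and when both 4-month-old samples were (0.59, adjusted p = 0.0369). Hk2, a hexokinase typical of muscle and of dividing cells, had 5.65, 6.01, 6.26 and 5.84 in old GFP-positive samples, 5.91, 5.97 and 5.54 in young GFP-positive samples and 6.65, 7.05 and 6.62 in young GFP-negative samples. All 7 GFP-positive values lay below all 3 GFP-negative ones, as for 11.4% of all genes. Hk2 averaged 5.80 ± 0.23 in young GFP-positive and 6.77 ± 0.24 in young GFP-negative cells (SD, n = 3 each), a log2 difference of -0.97 ± 0.18 (SE, adjusted p = 0.00361).

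Phosphofructokinase is the committed and most regulated step. Pfkm, the gene of the muscle-type subunit, had 9.43, 9.34, 9.16 and 9.72 in old GFP-positive samples, 9.65, 9.63 and 8.89 in young GFP-positive samples and 8.09, 8.13 and 7.42 in young GFP-negative samples. Every GFP-positive value was above every GFP-negative one, as for 18.1% of all genes, and in both young groups replicate 3 was the lowest. The difference between the young groups was 2.85-fold (log2 1.51 ± 0.24, SE, adjusted p = 0.00121). Pfkp, the gene of the platelet-type subunit, had 9.18, 9.03, 8.96 and 9.47 in old GFP-positive samples, 9.28, 9.06 and 8.70 in young GFP-positive samples and 8.62, 8.33 and 7.47 in young GFP-negative samples. The gap between the young groups was narrow, from 8.70 to 8.62, and the log2 difference of 0.88 ± 0.27 (SE, 1.83-fold) passed at an adjusted p of 0.0442. That call was lost when any 1 of the 4 old GFP-positive samples was left out (adjusted p from 0.0504 to 0.0592), and when replicate 1 (0.74, adjusted p = 0.147) or 2 (0.85, 0.106) of the young GFP-positive or replicate 2 (0.97, 0.0707) or 3 (0.54, 0.0964) of the young GFP-negative cells was dropped. It was also lost with each array centred on its median (0.87, adjusted p = 0.0657), without both young samples numbered 1 (0.98, 0.0658) and in a fit of only the young groups (0.88, 0.0915).

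Aldolase cleaves fructose 1,6-bisphosphate. Aldoc, the brain isoenzyme and a common marker of astrocytes, had 12.02, 11.99, 11.89 and 12.01 in old GFP-positive samples, 12.13, 12.04 and 11.79 in young GFP-positive samples and 9.54, 9.60 and 8.45 in young GFP-negative samples. The 7 GFP-positive values spanned 11.79 to 12.13, and GFP-negative replicate 3 lay more than 1 log2 unit below replicates 1 and 2. The young groups averaged 11.99 ± 0.18 in GFP-positive and 9.20 ± 0.65 in GFP-negative cells (SD, n = 3 each), a 6.91-fold difference (log2 2.79 ± 0.25, SE, adjusted p = 1.85e-05). It was the 53rd largest positive difference of the 19965 genes. Aldoa, the isoenzyme of muscle and of many other tissues, had 10.10, 9.95, 9.88 and 10.26 in old GFP-positive samples, 10.46, 10.49 and 10.19 in young GFP-positive samples and 10.78, 10.58 and 10.11 in young GFP-negative samples. Its young groups overlapped, and the log2 difference was -0.11 (95% confidence interval -0.49 to 0.28, adjusted p = 0.691), turning to 0.036 without young GFP-negative replicate 1. The interval of Aldoc, 2.23 to 3.34, did not meet that of Aldoa.

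Lactate dehydrogenase is a tetramer of subunits encoded by Ldha, associated with lactate formation, and Ldhb, associated with lactate use. Ldha had 8.58, 8.32, 8.21 and 8.45 in old GFP-positive samples, 8.46, 8.72 and 8.09 in young GFP-positive samples and 8.83, 8.69 and 8.56 in young GFP-negative samples. The young groups overlapped, and the log2 difference of -0.27 (95% confidence interval -0.64 to 0.093) did not pass (adjusted p = 0.290). Ldhb had 8.83, 8.62, 8.52 and 8.69 in old GFP-positive samples, 8.84, 9.03 and 8.44 in young GFP-positive samples and 8.22, 8.01 and 7.70 in young GFP-negative samples. All 7 GFP-positive values were above the 3 GFP-negative ones, and the difference between the young groups was 1.73-fold (log2 0.79 ± 0.18, SE, adjusted p = 0.00869).

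Of the 10 enzymes Ppp1r3c had the largest difference and Pygb the third largest. Ppp1r3c, which encodes a subunit that brings protein phosphatase 1 to glycogen and favours its synthesis, had 10.40, 10.20, 9.58 and 10.08 in old GFP-positive samples, 10.44, 10.70 and 10.03 in young GFP-positive samples and 6.66, 7.41 and 7.20 in young GFP-negative samples. No GFP-positive sample came within 2 log2 units of a GFP-negative one. The young groups averaged 10.39 ± 0.34 in GFP-positive and 7.09 ± 0.39 in GFP-negative cells (SD, n = 3 each), a 9.85-fold difference (95% confidence interval 6.73 to 14.4, adjusted p = 5.38e-06) and the 22nd largest positive one of all genes. Pygb, the brain form of glycogen phosphorylase, which releases glucose units from glycogen, had 10.58, 10.59, 10.38 and 10.57 in old GFP-positive samples, 10.54, 10.64 and 10.01 in young GFP-positive samples and 8.64, 8.41 and 7.64 in young GFP-negative samples. It was 4.49-fold higher in the GFP-positive cells (95% confidence interval 3.12 to 6.46, adjusted p = 7.62e-05), the 129th largest positive difference. A gene for glycogen storage and one for its breakdown were thus both higher in the same sorted fraction.

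**Figure D1:**
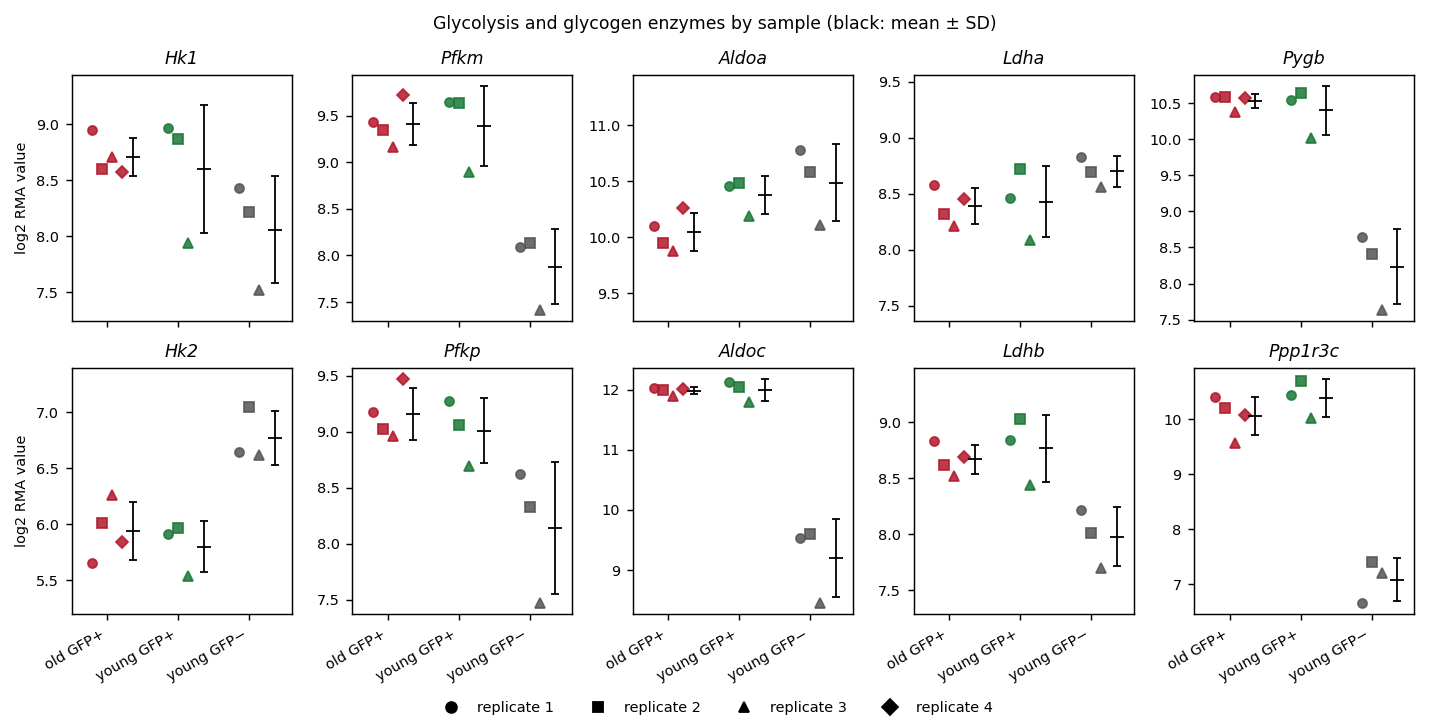
Log2 RMA values (y axes, each with its own range) of the 10 enzymes in old GFP-positive, young GFP-positive and young GFP-negative samples, with 1 point per sample, its shape giving the replicate number, and the group mean ± SD in black. Pfkm, Pfkp, Aldoc, Ldhb, Pygb and Ppp1r3c are higher in all 7 GFP-positive samples than in the 3 GFP-negative ones, Hk2 is lower, and replicate 3 of the young groups is mostly the lowest.

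**Figure D2:**
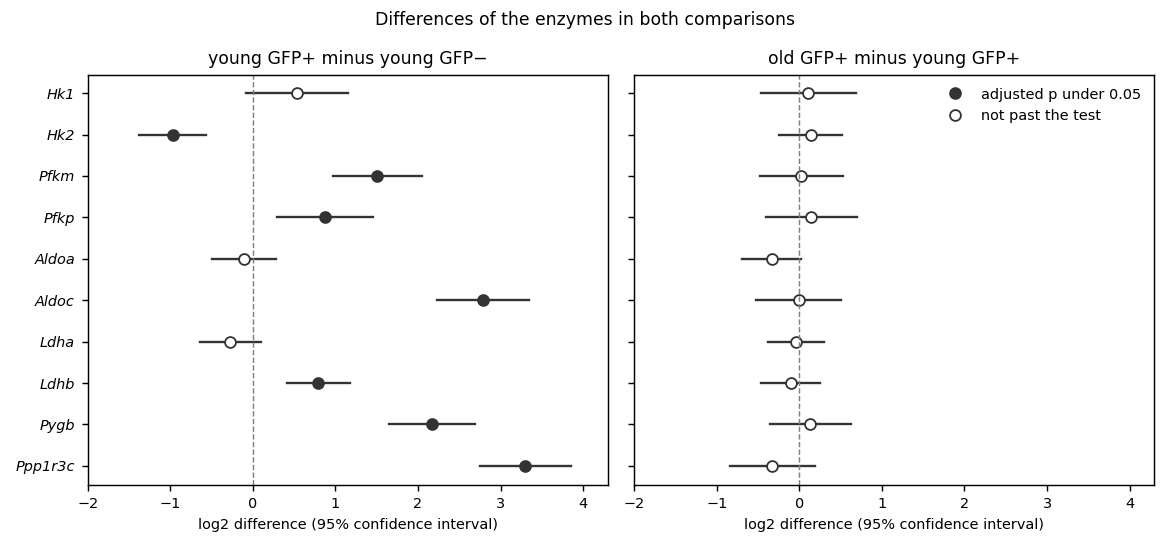
Log2 differences (x axes, points) with 95% confidence intervals (lines) of the 10 enzymes between young GFP-positive and young GFP-negative cells (left) and between old and young GFP-positive cells (right). Filled points passed the test at an adjusted p under 0.05. The left differences run from -0.97 for Hk2 to 3.30 for Ppp1r3c, and the right ones from -0.33 to 0.15.

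The ratio between isoenzymes of the same step separated the young fractions in all 4 pairs. Levels of different probe sets cannot be set against each other, but the change of their ratio between groups can be described. RMA understates changes of dim genes, so the shift can be biased where 1 gene is dimmer. Hk2 (5.54 to 7.05 over all samples) was dimmer than Hk1 (7.52 to 8.97). The log2 ratio of Aldoc over Aldoa was 1.67, 1.55 and 1.60 in young GFP-positive samples, against -1.24, -0.98 and -1.66 in young GFP-negative samples, a shift of 2.90 or 7.45-fold. That of Ldha over Ldhb was -0.38, -0.30 and -0.35 in young GFP-positive samples, against 0.61, 0.68 and 0.86 in young GFP-negative samples, so the ratio was lower by 2.09-fold in the GFP-positive cells, with an SD of 0.038 and 0.13. Hk2 over Hk1 had -3.07, -2.90 and -2.41 in young GFP-positive samples and -1.79, -1.17 and -0.91 in young GFP-negative samples, a shift of -1.50. Pfkp over Pfkm had -0.37, -0.57 and -0.19 in young GFP-positive samples and 0.52, 0.20 and 0.05 in young GFP-negative samples, a shift of -0.63, the smallest of the 4. The groups did not overlap for any of these 4 pairs, where 38.9% of single genes did not overlap. The share for pairs of genes was not computed, and each pair holds at least 1 gene that passed on its own. Each exact two-sided permutation test of 3 against 3 samples gave p = 0.1, the smallest it can give. It was also 0.1 after Benjamini-Hochberg adjustment over the 4 pairs.

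**Figure D3:**
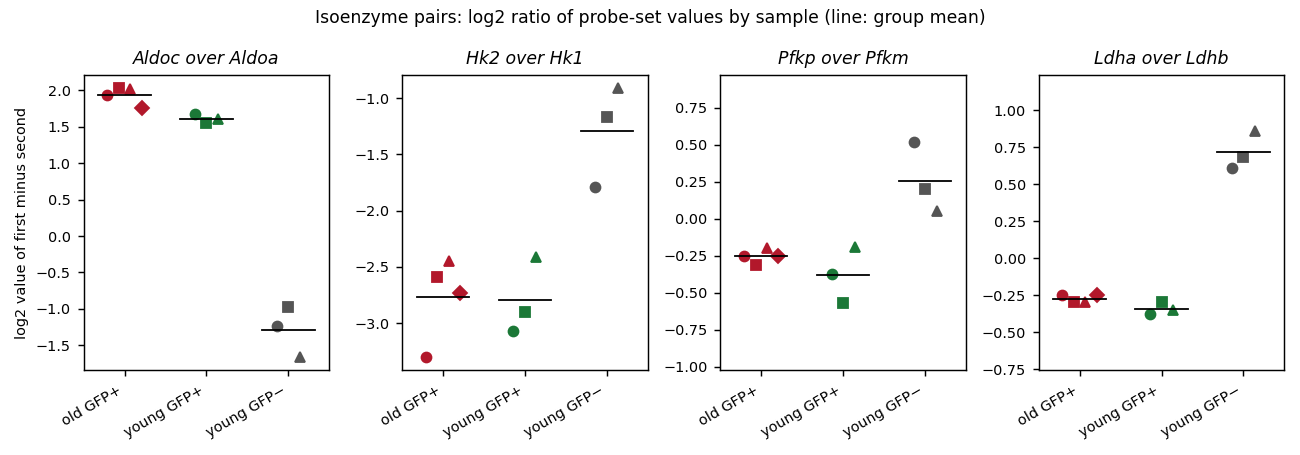
Log2 ratio of the array values of both isoenzymes of a step (y axes) in old GFP-positive, young GFP-positive and young GFP-negative samples, 1 point per sample with its shape giving the replicate number, and a line at the group mean. The Aldoc over Aldoa ratio lies between 1.55 and 2.03 in GFP-positive samples and between -1.66 and -0.98 in GFP-negative ones, and the other ratios are lower in the GFP-positive samples.

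Of 26 other genes of glycogen metabolism measured, 10 were higher in young GFP-positive cells, 1 was lower and 15 did not pass, where 7.68% of all genes were higher and 9.30% lower. Their median log2 difference was 0.32, against 0.098 over all genes. The largest were those of phosphorylase kinase, the enzyme that activates glycogen phosphorylase: its catalytic subunit gene Phkg1 had 9.07, 8.74 and 8.60 in GFP-positive samples, against 5.61, 5.77 and 5.86 in GFP-negative samples (8.35-fold, adjusted p = 2.16e-07), and the regulatory subunit gene Phka1 had 10.31, 9.97 and 9.84 against 7.71, 7.86 and 8.26 in GFP-negative samples (4.29-fold, adjusted p = 5.53e-06). The other catalytic subunit gene, Phkg2, did not pass (log2 0.28, adjusted p = 0.413), nor did Phka2, which encodes the other alpha subunit (-0.53, adjusted p = 0.159) and lies outside the naming rule. The other phosphorylases, Pygm of muscle (log2 1.92) and Pygl of liver (1.07), were higher too, so all 3 phosphorylase genes had more mRNA in the GFP-positive cells. So were the targeting subunit gene Ppp1r3g (1.66), the phosphoglucomutase gene Pgm1 (1.65) and Ugp2 (1.17), which makes UDP-glucose for glycogen synthesis. Phkb, the beta subunit gene of phosphorylase kinase (1.07), and the glycogen synthase gene Gys1 (0.82) were higher as well and were named after their values were seen. Gyg, the glycogenin gene that primes the polymer, was lower (-0.54, adjusted p = 0.034). Gyg no longer passed when replicate 1 or 3 of the young GFP-positive or replicate 2 or 3 of the young GFP-negative cells was dropped (adjusted p from 0.0855 to 0.114), and with a second quantile normalization (0.0647).

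Of 18 other glycolysis enzymes measured, 2 were higher, 1 was lower and 15 did not pass, a share near the 17.0% called over all genes. Their median log2 difference was 0.27, against 0.098 over all genes, and Gapdh and Pgam1 were not analysed here. Eno1, the widely expressed enolase, was higher (log2 0.79, adjusted p = 0.0124), a call that ended when replicate 1 or 2 of the young GFP-positive or replicate 2 of the young GFP-negative cells was dropped (adjusted p from 0.052 to 0.0559). Ldhc, a testis form of lactate dehydrogenase with dim values between 4.94 and 5.75 on all arrays, was higher by 0.54 (adjusted p = 0.00778). Bpgm, which makes 2,3-bisphosphoglycerate and is best known in red blood cells, was lower (-0.62, adjusted p = 0.0319). Of 3 erythroid genes measured 1 was lower in the same samples, the beta-globin gene Hbb-bt (-4.79, adjusted p = 0.00014), and 2 did not pass. The part of red blood cells in the Bpgm value was not tested. Bpgm no longer passed when replicate 1 or 3 of the young GFP-positive cells or any of the 3 young GFP-negative samples was dropped (adjusted p from 0.0526 to 0.111).

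Of 9 genes for glucose and lactate transport 1 was higher and 3 were lower, where 7.68% of all genes were higher and 9.30% lower, and their median log2 difference was -0.094, against 0.098 over all genes. Slc16a7, which encodes the monocarboxylate transporter MCT2 that neurons use to take up lactate, had 4.56, 4.41 and 5.24 in young GFP-positive samples, against 7.58, 7.15 and 7.18 in young GFP-negative samples (5.93-fold lower, adjusted p = 1.72e-05). Slc16a1, the MCT1 transporter of endothelium and oligodendrocytes (-0.88, adjusted p = 0.0103), and Slc2a3, the neuronal glucose transporter GLUT3 (-0.82, adjusted p = 0.0233), were lower. Slc2a4, the insulin-responsive transporter GLUT4, was higher (0.73, adjusted p = 0.00336). Slc2a3 no longer passed when replicate 1 or 2 of the young GFP-positive or replicate 1 or 3 of the young GFP-negative cells was dropped (adjusted p from 0.0709 to 0.093). In the same samples 7 of 7 endothelial and 7 of 7 oligodendrocyte genes were lower. The mature neuron genes were mixed, 3 of 10 being lower, 6 not passing and 1 higher, Gad2 of inhibitory neurons (1.89, adjusted p = 0.0166), named after its values were seen. The part of these cells in the transporter values was not tested.

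At the branch from pyruvate into mitochondria, kinases of pyruvate dehydrogenase differed in opposite directions. Pdk2 was higher in young GFP-positive cells (log2 1.25, adjusted p = 0.0168), while Pdk3 had 6.24, 5.64 and 6.10 in GFP-positive samples, against 8.06, 7.75 and 7.47 in GFP-negative samples (3.40-fold lower, adjusted p = 7.17e-05). The phosphatase gene Pdp2 was higher (0.89, adjusted p = 0.0105). Of the 14 genes of this list 2 were higher, 1 was lower and 11 did not pass, where 17.0% of all genes were called. Pdk2 no longer passed when replicate 1 or 2 of the young GFP-positive or replicate 2 or 3 of the young GFP-negative cells was dropped (adjusted p from 0.0542 to 0.0672). Among 13 regulators 2 were higher, 1 was lower and 10 did not pass, against 17.0% called over all genes. Pfkfb4, which makes and degrades the activator fructose 2,6-bisphosphate, was higher (0.76, adjusted p = 0.00393). So was Prkaa2, a catalytic subunit of the energy sensor AMPK (0.63, adjusted p = 0.0311). Hif1a, the oxygen-regulated subunit of a transcription factor of glycolytic genes, was lower (-0.55, adjusted p = 0.0268). The Prkaa2 call was lost without any 1 of the young samples other than GFP-negative replicate 1 (adjusted p from 0.0662 to 0.103). Hif1a did not pass without young GFP-positive replicate 1 or 3 or young GFP-negative replicate 3 (adjusted p from 0.0781 to 0.0926). Its call also ended without both 4-month-old samples (-0.33, adjusted p = 0.195). The same held with a second quantile normalization (adjusted p = 0.073) and in a fit of only the young groups (0.0547). Of 14 genes of the pentose phosphate pathway and gluconeogenesis only 1 passed, against 17.0% of all genes. It was the transaldolase gene Taldo1, lower by 2.38-fold (adjusted p = 0.000681).

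**Figure D4:**
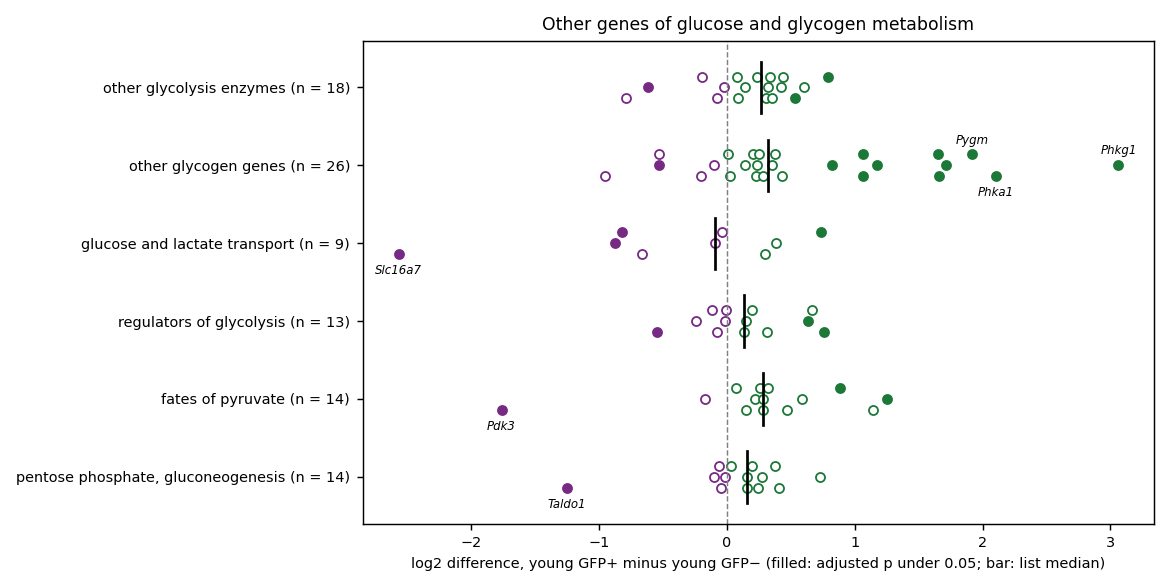
Log2 difference between young GFP-positive and young GFP-negative cells (x axis) of each measured gene in 6 lists of glucose and glycogen metabolism (rows), green above 0 and purple below, filled where the adjusted p was under 0.05, with a bar at the list median. The glycogen list reaches 3.06 with Phkg1, and the lowest point is that of the transporter gene Slc16a7 at -2.57.

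The fractions differed in cell type markers beside the enzymes, where 7.68% of all genes were higher and 9.30% lower. Of 10 astrocyte genes all 10 were higher in young GFP-positive cells, and their mean level was 10.31 to 10.78 in these samples, against 7.12 to 8.01 in young GFP-negative samples. Aqp4 (log2 3.82), Slc1a2 (2.38), Gja1 (2.88) and Gfap (2.80) are examples, and of 8 stem and progenitor genes 4 were higher, with Hopx (2.66) and Sox2 (1.06) among them and Sox1, the gene of the reporter, at 0.28 (adjusted p = 0.123; 0.0349 with array weights). All 9 microglia genes (Cx3cr1 -3.51), 7 oligodendrocyte genes (Mbp -2.21), 5 precursor genes (Olig1 -1.53, Olig2 -0.80) and 7 endothelial genes (Flt1 -2.74, Cldn5 -1.53) were lower. The markers were not at 0 in any sample, since an RMA value has no 0 for an absent transcript: microglia genes still had a mean of 6.17 to 6.87 in young GFP-positive samples, against 9.68 to 10.31 in young GFP-negative ones. Mature neuron genes had 6.79 to 7.56 in young GFP-positive and 7.16 to 8.40 in young GFP-negative samples, where 1 of 10 was higher and 3 were lower, with Snap25 (-1.11, adjusted p = 0.105) and Syt1 (-0.69, adjusted p = 0.4) not past the test. Of the remaining lists 1 of 5 immature neuron genes was higher, 1 of 3 erythroid genes was lower and 0 of 6 choroid plexus genes passed, with Ttr at 0.11 (adjusted p = 0.972) and Kcnj13 at -0.002 (adjusted p = 0.998); Alas2 differed by -0.42 (adjusted p = 0.163). Olig2 no longer passed when replicate 1 or 3 of the young GFP-positive or replicate 2 or 3 of the young GFP-negative cells was dropped (adjusted p from 0.0518 to 0.0639), nor did Cldn5 without young GFP-positive replicate 1 (0.0573). Sox11 passed without young GFP-positive replicate 1 (1.24, adjusted p = 0.044), and Snap25 (adjusted p = 0.0416) and Syt1 (0.0391) without young GFP-negative replicate 3. Snap25 (0.0203) and Alas2 (0.0143) also passed with array weights, and Snap25 in a permutation test after Significance Analysis of Microarrays. What share of the enzyme differences these cell types account for was not tested. The labels call the GFP-positive cells neural stem and progenitor cells, and on these arrays both astrocyte genes and part of the stem cell list were higher in them.

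Within each young group the enzymes were lowest in the 4-month-old sample. All 10 had their lowest young GFP-positive value in replicate 3, where 32.5% of all genes did, and 9 of 10, all but Ppp1r3c, had their lowest young GFP-negative value in replicate 3, where 30.5% of all genes did. The mean level of the 10 was 8.96 in young GFP-positive replicate 3, against 9.47 and 9.52 in replicates 1 and 2, and 7.87 in young GFP-negative replicate 3, against 8.45 and 8.44. In both samples the astrocyte markers were lowest in their group as well, at 10.31 and 7.12. Young GFP-positive replicate 3 also had the highest level of 5 immature neuron markers, 8.55 against 6.67 and 6.60 in the other young GFP-positive samples, with Sox11 at 9.17 and Tubb3 at 9.71. Its oligodendrocyte (8.75), oligodendrocyte precursor (7.81) and microglia (6.87) levels were the highest of the young GFP-positive samples too. In young GFP-negative replicate 3 the endothelial level was the lowest, 7.25 against 9.16 and 8.53. So was its mature neuron level, 7.16 against 8.40 and 8.16. Its microglia (9.68), oligodendrocyte (10.64), choroid plexus (5.78) and erythroid (6.62) levels were also the lowest of the young GFP-negative samples. Its oligodendrocyte precursor level was the highest (9.45), and its stem (6.76) and immature neuron (6.72) levels were not the lowest. Both arrays numbered 3 had the smallest spread over genes of their young group, an SD of 1.624 log2 units in GFP-positive cells against 1.693 and 1.714, and of 1.703 in GFP-negative cells against 1.796 and 1.763, and the part of this spread in the lower enzyme values was not tested. Each age within the young groups is that of 1 or 2 samples, so age and the makeup of the sample cannot be told apart here. Without both 4-month-old samples 8 of the 10 enzymes passed between the fractions, the 7 named above and Hk1. Both young samples numbered 1 had high choroid plexus genes, with a mean of 8.39 in GFP-positive and 8.60 in GFP-negative cells and Ttr at 12.59 and 12.69, and without them 6 of the 7 calls held, Pfkp being lost. Of the other named genes Eno1, Ldhc, Bpgm, Gyg, Slc16a1, Slc2a3, Prkaa2, Hif1a, Pdp2, Sox2 and Cldn5 did not pass without them either (adjusted p from 0.051 to 0.203), and without both 4-month-old samples Bpgm, Gyg, Prkaa2, Hif1a and Olig2 did not (adjusted p from 0.121 to 0.202). With age in months as a covariate over the young samples the calls of Slc16a1, Hif1a, Cldn5 and Sox2 ended (adjusted p from 0.0517 to 0.0809).

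**Figure D5:**
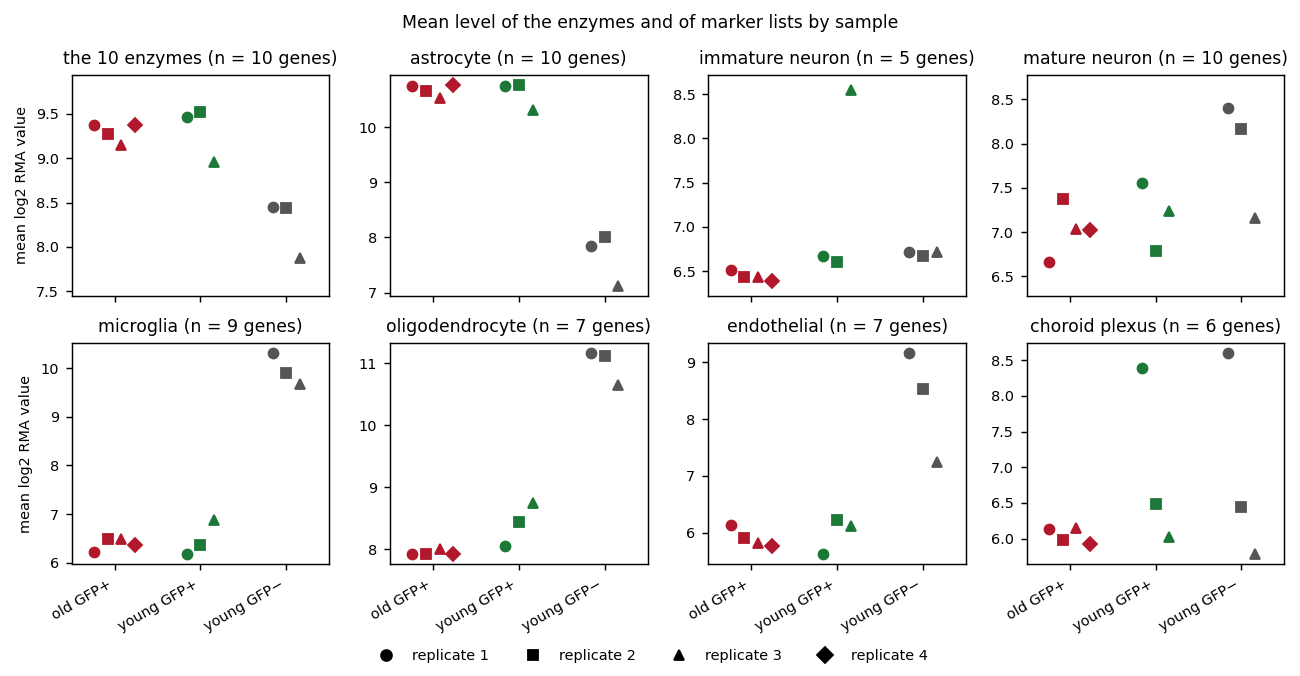
Mean log2 RMA value (y axes) of the 10 enzymes and of 7 marker lists in each sample, in old GFP-positive, young GFP-positive and young GFP-negative groups, with the point shape giving the replicate number. The enzymes and the astrocyte markers are low in replicate 3 of both young groups, and young GFP-positive replicate 3 stands apart in the immature neuron markers at 8.55.

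No difference with age was detectable for any of the 10 enzymes with 4 old and 3 young GFP-positive samples. Each of the 10 overlapped between old and young GFP-positive samples, where 10.9% of all genes did not. The largest differences were those of Aldoa, which averaged 10.05 ± 0.17 (SD, n = 4) in old and 10.38 ± 0.17 (SD, n = 3) in young GFP-positive cells (log2 -0.33, 95% confidence interval -0.70 to 0.026, adjusted p = 0.515), and of Ppp1r3c, with 10.06 ± 0.35 (SD, n = 4) in old and 10.39 ± 0.34 (SD, n = 3) in young GFP-positive cells (-0.33, interval -0.84 to 0.19, adjusted p = 0.624). Aldoc had 11.98 ± 0.06 (SD, n = 4) in old and 11.99 ± 0.18 (SD, n = 3) in young GFP-positive cells, with an interval of -0.53 to 0.51. For Pygb (0.13, interval -0.36 to 0.62), Hk1 (0.11, -0.47 to 0.69) and Pfkm (0.024, -0.48 to 0.53) the intervals likewise reached both signs, as they did for Hk2, Pfkp, Ldha and Ldhb. Across the 10 the intervals reached at most 1.79-fold, for Ppp1r3c, so larger differences with age lie outside them.

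The ratio of Aldoc over Aldoa was 1.93, 2.03, 2.01 and 1.75 in old GFP-positive samples, against 1.67, 1.55 and 1.60 in young GFP-positive samples, so the groups did not overlap. The values of 10.9% of single genes did not overlap between these groups either. The shift of 0.33 or 1.25-fold had an exact two-sided permutation p of 0.057, the smallest that 4 against 3 samples can give, and 0.229 after adjustment over the 4 pairs. The shifts were smaller for Ldha over Ldhb (0.066, exact p = 0.171), Pfkp over Pfkm (0.12, exact p = 0.4) and Hk2 over Hk1 (0.026, exact p = 0.971). In old replicate 3, 8 of the 10 enzymes had the lowest value of the 4 old samples, where 19.0% of all genes did. That sample had the smallest spread over genes of all arrays, an SD of 1.54 log2 units against 1.61 to 1.68 in the other old samples, and was the only one with high Xist, an RNA of female cells (11.90, against 4.95 to 5.69 elsewhere). Without it the enzyme differences with age also gave 0 calls.

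None of the 6 other metabolic lists had a gene past the test with age (limma). At an unadjusted p under 0.05, which 10.2% of all genes had, there were 3 of 18 genes in glycolysis, 1 of 26 in glycogen metabolism, 2 of 9 transporters, 1 of 13 regulators, 3 of 14 genes at the pyruvate branch and 0 of 14 in the pentose phosphate pathway and gluconeogenesis. Closest in their lists were Bpgm (log2 -0.53, adjusted p = 0.334) and Pgk1 (-0.53, adjusted p = 0.467) in glycolysis, Phkg2 (-0.64, adjusted p = 0.377) and Phkg1 (-0.20, adjusted p = 0.604) in glycogen metabolism, and Slc16a1 (-0.60, adjusted p = 0.339) and Bsg (-0.70, adjusted p = 0.395), which encodes a partner of lactate transporters. Pfkfb4 (-0.45, adjusted p = 0.334), Txnip (-0.61, adjusted p = 0.501), Pdk3 (-0.46, adjusted p = 0.438), Mpc2 of the mitochondrial pyruvate carrier (-0.52, adjusted p = 0.449), Fbp2 (0.23, adjusted p = 0.548) and Pck2 (0.20, adjusted p = 0.555) were the nearest in the others. Of all genes 3 passed, all lower in old cells and none of them in these lists: Atf3 (2.31-fold), Prmt1 (1.86-fold) and Svbp (1.98-fold), named after their values were seen. The count was 0 when only the 2 ages were fitted, and between 0 and 9 when single samples were left out, with 9 without young GFP-positive replicate 1 and 0 without old replicate 1 or 2, any 1 of the young GFP-negative samples, or young GFP-positive replicate 2 or 3.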

How the data were processed

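Per the series description, amplified RNA of the sorted cells was read on 10 GeneChip arrays (Mouse Gene 1.0 ST). The authors deposited log2 values made by RMA, which subtracts background, sets all arrays to 1 distribution and summarises probe sets, with probes mapped to RefSeq genes of the build mm9 per the submitters' processing notes and the series description; no source used here gives the version of RMA. RMA removes differences in total signal, and understates changes of dim genes. The authors left out 1 young array, and the table gives no background level. The series description gives 5 to 7 months for young mice, while titles of both replicates numbered 3 give 4 months, which were used.

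From these values, 24590 of 31672 probe sets had a symbol in the RefSeq table of GRCm38.p6, and the brightest of each gene gave 19965 genes. The 3 groups were fitted with limma 3.58.1 in R 4.3.3, with Benjamini-Hochberg adjustment over all genes and a threshold of 0.05. Ratios of isoenzymes were tested exactly with scipy 1.17.1. A permutation test after the authors' Significance Analysis of Microarrays (SAM) was an alternative, as were other normalizations, features, filters, weights and samples. The labels call the samples biological replicates. The limma p-values rest on the spread between them, pooled over the 3 groups and drawn toward that of all genes. Deviations of same-numbered young samples correlated by 0.124, 0.021 and 0.191, and those of differently numbered ones by -0.176 to 0.078. Samples numbered 1 and 3 correlated best with their own number, and those numbered 2, of 5 and 7 months, did not. The main fit did not take the numbers as pairs, and a replicate block was an alternative. The fit was tested on simulated data.

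The enzymes and lists were chosen with earlier results of these data known. Beside the enzymes, genes of each metabolic list past the test were named, up to 8 in each direction, with the 2 smallest p for age, the 2 brightest genes of each marker list, and Sox1, Gfap and Aqp4. Some genes that this rule names are not reported here.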

Additional observations from a re-analysis of the deposited data

Results flagged for a closer look

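Among the 4 old GFP-positive samples 1 sample stood apart from the other 3 in 7 of the 63 named genes, by Dixon's test at 95%. Chance gives about 1 in 20 groups, if genes are independent, while these share the same 4 arrays. The test weighs the gap against the range, so small gaps are flagged where the other 3 samples lie close together. Among the enzymes this was Pygb, with 10.38 in old replicate 3, below 10.57 to 10.59 in the others. Phka1 had 10.15 in old replicate 4, below 10.23 to 10.24. Pdk3 had 5.81 in old replicate 4, above 5.42 to 5.48, and Pck2 had 6.69 in old replicate 3, above 6.33 to 6.39. In old replicate 1, Pfkfb4 had 6.05, above 5.87 to 5.89, Olig2 had 7.65, below 8.25 to 8.30, and Ttr had 7.83, above 6.35 to 6.44.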

How the results depend on the processing

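Aldoc, Hk2, Pfkm, Ldhb, Ppp1r3c and Pygb stayed past the test between the young fractions under every alternative run, with 6 to 8 enzymes past it in all, and 0 passed with age under any of them. The shifts of all 4 isoenzyme ratios between the young fractions kept their sign. Between the young fractions 3390 genes passed, against 5242 with all probe sets (of 31672), 5736 with array weights and 1841 without both young samples numbered 1, and 2393 to 3600 without single samples. With age 3 genes passed, against 0 with a second quantile normalization, a variance trend, only the 2 groups or the replicate block, 8 with all probe sets, 5 with the mean of a gene's probe sets, 20 with array weights, 1 without both 4-month-old samples, 5 without both samples numbered 1, 16 with the SAM-type test and 0 to 9 without single samples. The replicate block left 3285 genes and the same 7 enzymes between the young fractions. Not every sample's deviations correlated best with those of its own number. The block also joined old and young samples of the same number, from mice of different ages, so its results with age rest on arbitrary groups. Signs turned for small differences, and the cause was not tested. With age, Aldoc (main value -0.009) gave 0.075 with the second quantile normalization, 0.062 without both samples numbered 1 and -0.109 to 0.062 without single samples. Hk1 gave -0.052 with array weights, -0.215 without the 4-month-old samples and -0.215 to 0.299 without single samples. Pfkm gave -0.087 with weights, -0.079 with the replicate block, -0.225 without the 4-month-old samples and -0.225 to 0.153 without single ones. Without the 4-month-old samples Pfkp gave -0.011 and Pygb -0.061. Leaving out single samples gave -0.011 to 0.281 for Pfkp, -0.061 to 0.252 for Pygb, -0.205 to 0.112 for Ldha (0.049 with the second quantile normalization) and -0.267 to 0.025 for Ldhb. Between the young fractions Aldoa ranged from -0.297 to 0.036, Tubb3 from -0.689 to 0.246 (0.027 without both samples numbered 1) and Ttr from -1.595 to 1.813 without single samples. Kcnj13 gave 0.072 with the second quantile normalization, 0.133 with weights, 0.198 with age as a covariate, 0.070 without both samples numbered 1 and -0.368 to 0.436 without single samples. With 3 or 4 arrays a group and no background level, low values carry little information.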
